A study of Mus musculus with 2 samples.

Results

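Apolipoproteins are the proteins that coat lipid particles in plasma. 10 mouse genes were followed here by symbol in the deposited gene count table: Apoa1, Apoa2, Apoa4, Apoa5, Apob, Apoc1, Apoc3, Apoe, Apoh and Apom. All 10 were found, among 54532 listed genes. The samples were 2 tumours grown in C57BL/6 mice from the mouse hepatocellular carcinoma line Hepa1-6, with 1 RNA library each. The first came from Hepa1-6 cells stably carrying a lentivirus for IRF8 overexpression with GFP and puromycin resistance, and the second from cells carrying the vector control lentivirus with the same markers. Per the labels' protocols the populations were injected on opposite sides of one animal and whole tumour tissue gave the RNA, so it holds host cells too. IRF8 is a transcription factor of myeloid and B cells, and the design asks how the tumour transcriptome differs with it. Tumour and host reads are of the same species and were not separated; the age and number of the animals are not given in the labels.

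The liver makes most plasma apolipoproteins. Apob forms the backbone of very low and low density lipoprotein (VLDL and LDL), while Apoa1 and Apoa2 are the main proteins of high density lipoprotein (HDL). The smaller C proteins, with Apoa4, Apoa5 and Apoe, move between particles and regulate lipolysis and uptake by receptors. Apoe is also made by macrophages and adipocytes, whereas Apoh circulates mostly as a phospholipid-binding plasma protein. In hepatocytes these genes are known targets of the nuclear receptor Hnf4a and of partner factors.

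Total counts were 17316607 in the IRF8-labelled library and 20223649 in the vector-labelled library. The targeted gene goes against the labels: Irf8 had 2578 counts in the IRF8-labelled library and 4178 in the vector-labelled library (log2 ratio -0.51, 95% counting interval -0.58 to -0.44). Libraries are therefore called by their labels, and every direction below rests on these labels. With 1 library per group there is no replicate check, so no p-value was computed, and all differences compare 2 libraries rather than 2 conditions. Intervals cover counting error only. Reads were counted without molecular identifiers, so duplicate reads were not told apart and the intervals may be too narrow. Levels are given as CPM, the counts of a gene relative to the scaled library size, and levels of different genes are compared only as CPM per kb of exon. Genes with a mean level of 1 CPM or more are called measured here, and a gene is called higher or lower when it differed at least 2-fold on the log2 scale with a counting interval that left out 0.

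Counted by gene, most measured members were less abundant in the IRF8-labelled library, but Apob and Apoe were not. Apoa1, Apoa2, Apoc1, Apoh and Apom were at least 2-fold lower, Apoc3 was lower at counts under the filter, and no member was at least 2-fold higher. Of the 7 measured members 5 were lower, against 2.77% of all 14775 measured genes lower and 2.59% higher. With no filter 6 of 10 members were lower, against 2.7% of 26614 genes with any count, of which 3.06% were higher. The median log2 ratio of the 7 was -2.28, against -0.0012 over all measured genes. Apoa2, Apoh and Apom passed the filter through the vector-labelled library alone, as did 251 measured genes in all, so these 3 could only be lower once measured. In whole tumours, fewer cells of a type and less RNA per cell cannot be told apart.

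**Figure D1:**
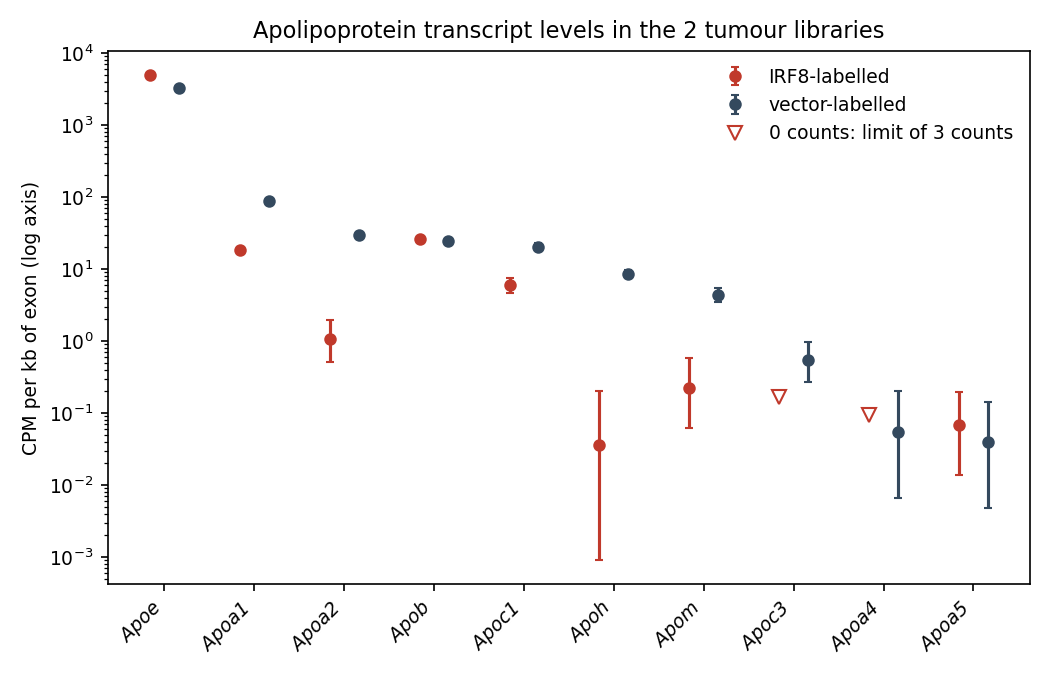
Level of each of the 10 apolipoprotein genes as CPM per kb of exon (log axis) in the IRF8-labelled library and in the vector-labelled one, 1 library each, with 95% exact Poisson intervals for counting error; open triangles mark 0 counts, drawn at the level of 3 counts. Apob (26.4 CPM per kb IRF8-labelled, 24.6 vector-labelled) is nearly level, and Apoe (4940 IRF8-labelled, 3251 vector-labelled) is 1.52-fold higher in the IRF8-labelled library. Apoa1, Apoa2, Apoc1, Apoh and Apom lie lower in the IRF8-labelled library.

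Among the HDL proteins, Apoa1, which activates the cholesterol esterifying enzyme Lcat and takes up cholesterol from cells, was per length second only to Apoe among the 10 members in the vector-labelled library. Apoa1 (ENSMUSG00000032083, chromosome 9, 46228580 to 46230466, plus strand) received 398 counts in the IRF8-labelled library and 2205 in the vector-labelled library. Its level was 22.7 CPM in the first (exact Poisson interval at 95%, 20.5 to 25.0) and 110.5 CPM in the second (106.0 to 115.3), a level 4.88-fold lower (4.38 to 5.44) in the IRF8-labelled library. Per length its rank among all genes was 3144 in the IRF8-labelled library and 518 in the vector-labelled library. Apoa2, the next most abundant protein of HDL, differed more. Apoa2 (ENSMUSG00000005681, chromosome 1, 171225054 to 171226379, plus strand) received 10 counts in the IRF8-labelled library and 317 in the vector-labelled library. That is 0.570 CPM (0.273 to 1.05) in the IRF8-labelled library and 15.9 CPM (14.2 to 17.7) in the vector-labelled library, 27.9-fold lower (15.0 to 58.8). Apom, a lipocalin of HDL that carries the signalling lipid sphingosine-1-phosphate, was also lower. Apom (ENSMUSG00000024391, chromosome 17, 35128997 to 35132050, minus strand) received 4 counts in the IRF8-labelled library and 89 in the vector-labelled library, 19.6-fold lower (7.39 to 73.5). The intervals of Apoa2 and Apom lie wholly beyond that of Apoa1, and they overlap each other.

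Apob, the single large protein that holds each VLDL or LDL particle together, was nearly level. Apob (ENSMUSG00000020609, chromosome 12, 7977648 to 8016835, plus strand) received 6463 counts in the IRF8-labelled library and 6842 in the vector-labelled library. The levels were 368.1 CPM (359.2 to 377.2) in the IRF8-labelled library and 343.0 CPM (334.9 to 351.2) in the vector-labelled library, 1.07-fold higher (1.04 to 1.11). The interval leaves out equality, but the size lies far within the 2-fold limit. Relative to Apob, and so free of any scaling between libraries, Apoa1 stood at 0.694 of the Apob level per length in the IRF8-labelled library and at 3.63 times that level in the vector-labelled library. The same quotient for Apoa2 was 0.0402 in the IRF8-labelled library and 1.20 in the vector-labelled library. The order of these levels thus differed: Apob exceeded Apoa1 and Apoa2 per length in the IRF8-labelled library and lay below both in the vector-labelled library.

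The C apolipoproteins govern how long triglyceride-rich particles stay in plasma. Apoc1, which slows the uptake of remnants by receptors, had 78 counts in the IRF8-labelled library and 304 in the vector-labelled library. This member (ENSMUSG00000040564, chromosome 7, 19689481 to 19692660, minus strand) was 3.43-fold lower (2.67 to 4.46), at 4.44 CPM in the IRF8-labelled library and 15.2 CPM in the vector-labelled library. Apoc3, an inhibitor of lipoprotein lipase, was rare in both tumours. Apoc3 (ENSMUSG00000032081, chromosome 9, 46232933 to 46235636, minus strand) received 0 counts in the IRF8-labelled library, for which the exact Poisson interval reaches 0.210 CPM, and 11 in the vector-labelled library (0.551 CPM, 0.275 to 0.987). Set against 3 counts in the IRF8-labelled library it was 3.23-fold lower, and its counting interval began at 2.21-fold.

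Apoa4 and Apoa5 were close to absent. Apoa4, known in the mouse from intestine and liver, had 0 counts in the IRF8-labelled library and 2 in the vector-labelled library, both under the limit of 3 counts, so no fold is given. Apoa5, a liver protein that promotes lipolysis, had 3 counts in the IRF8-labelled library and 2 in the vector-labelled library, a ratio of 1.70 with an interval of 0.195 to 20.4. A difference in these genes was not detectable at this depth. Antisense genes overlap 34.8% of the exons of Apoa4 and 20.8% of those of Apoa5 in GENCODE M21, which had the same coordinates for all 10 members, but the antisense genes had 0 counts in both libraries.

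Apoe, the ligand by which remnants bind the LDL receptor and Lrp1, was the measured member with the highest log2 ratio, 0.60 (0.59 to 0.61). Apoe (ENSMUSG00000002985, chromosome 7, 19696109 to 19699188, minus strand) received 185429 counts in the IRF8-labelled library and 138637 in the vector-labelled library. The levels were 10561 CPM (10513 to 10610) in the IRF8-labelled library and 6950.4 CPM (6914 to 6987) in the vector-labelled library, 1.52-fold higher (1.51 to 1.53). By counts Apoe ranked 2 of all genes in the IRF8-labelled library and 3 in the vector-labelled library, and its ranks per length were the same. It did not reach 2-fold. At a 1.5-fold limit it was the only member higher, against 6.94% of measured genes, and the same 5 members were lower, against 5.56%.

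Macrophage markers were looked at beside Apoe because macrophages make it. Of 20 markers 15 were measured, and their median log2 ratio was -0.047. None of the 15 was at least 2-fold different in either direction, against 2.77% lower and 2.59% higher over all measured genes. With shares this small, none among 15 says little. Their summed level was 2179.7 CPM in the IRF8-labelled library and 2159.5 CPM in the vector-labelled library. Adgre1, which encodes F4/80, had a log2 ratio of -0.43 (-0.58 to -0.28), Cd14 -0.47 (-0.66 to -0.29) and Mrc1 -0.41 (-0.52 to -0.30). The complement gene C1qa was at 0.10 (0.05 to 0.15), Lgmn at -0.20 (-0.25 to -0.14) and Ms4a7 at 0.33 (0.13 to 0.52). Of the 5 under the filter 2 were lower: Marco had 4 counts in the IRF8-labelled library and 35 in the vector-labelled library (-2.48, -4.90 to -1.46), and Cd163 had 6 in the IRF8-labelled library and 23 in the vector-labelled library (-1.49, -3.34 to -0.42). Clec4f, a marker of liver-resident macrophages, had 0 counts in both. The highest ratio among the 15 was the 0.33 of Ms4a7, and the part of macrophages in the Apoe level was not tested. Adipocytes are another source of Apoe. Of 8 measured adipocyte markers 6 were at least 2-fold higher, against 2.59% of measured genes, and 3 of the 6 (Adipoq, Plin1 and Cidec) reached 1 CPM in the IRF8-labelled library alone. The list had a summed level of 219.5 CPM in the IRF8-labelled library and 132.0 CPM in the vector-labelled library. The whole adipocyte list held 3853 counts in the IRF8-labelled library and 2633 in the vector-labelled library, and its part in the Apoe level was not tested.

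Apoh, also called beta-2-glycoprotein I, a plasma protein that binds anionic phospholipids, had the lowest log2 ratio of the family, -6.40. Apoh (ENSMUSG00000000049, chromosome 11, 108343354 to 108414396, plus strand) received 1 count in the IRF8-labelled library and 274 in the vector-labelled library. The levels were 0.0570 CPM (0.00144 to 0.317) in the IRF8-labelled library and 13.7 CPM (12.2 to 15.5) in the vector-labelled library. The ratio was 241-fold lower, with an interval of 42.9 to 9560 that rests on the single count and overlaps those of Apoa2 and Apom. Prkca, on the opposite strand, shares 1.9% of the exonic bases of Apoh and had 637 counts in the IRF8-labelled library and 703 in the vector-labelled library. Since the kit named in the labels keeps no strand information, reads in the shared stretch cannot be assigned to either gene.

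**Figure D2:**
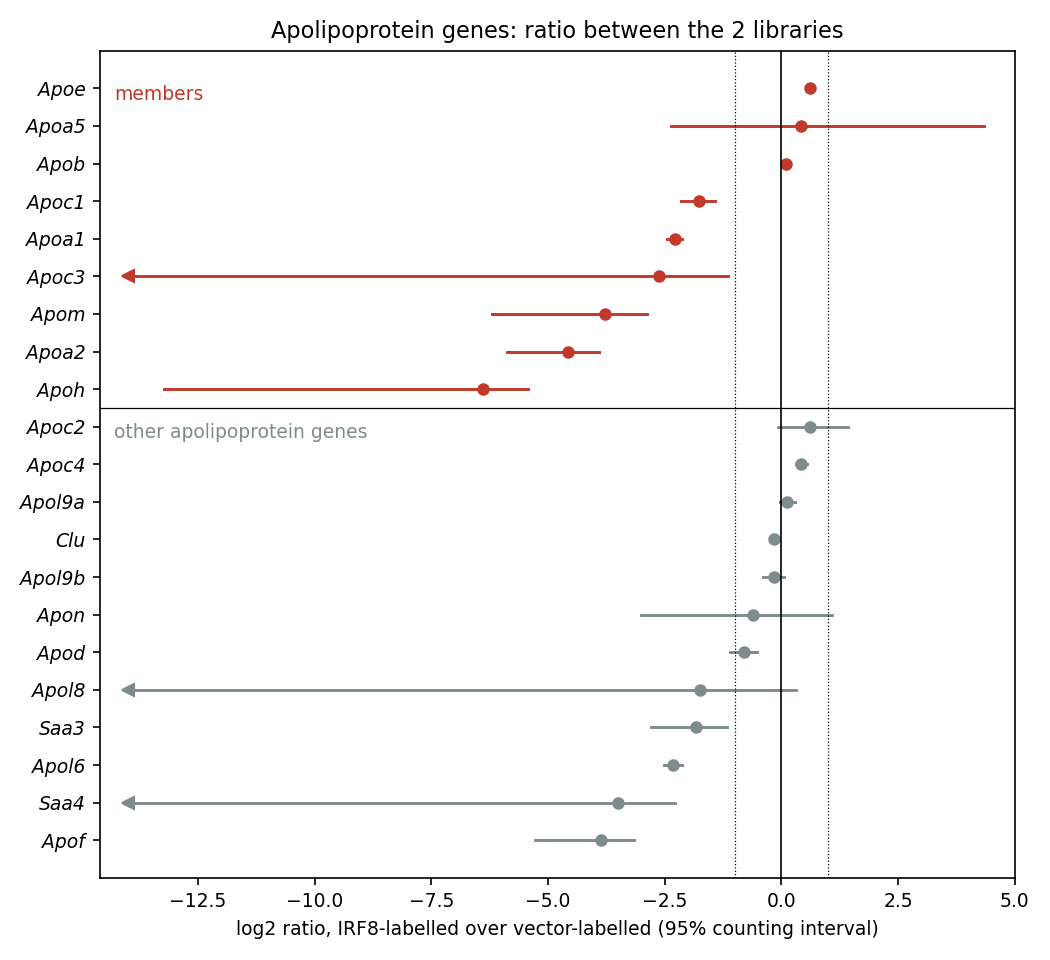
Log2 ratio, IRF8-labelled over vector-labelled, of 9 members (upper block) and 12 other apolipoprotein genes (lower block) with over 3 counts in all; lines are 95% counting intervals, arrows mark intervals without a lower end because of 0 counts in the IRF8-labelled library (there the point depends on the prior count), and dotted lines mark 2-fold. Apob (0.10) and Apoe (0.60) lie right of 0, while Apoh, Apoa2, Apom, Apoa1 and Apoc1 lie wholly left of the lower 2-fold line.

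Because Apoe outweighs the rest, the family total hid these differences. All 10 genes together took 1.11% of counts (Wilson interval 1.106 to 1.116) in the IRF8-labelled library and 0.735% (0.731 to 0.739) in the vector-labelled library. Without Apoe they took 0.0402% (0.0392 to 0.0411) in the IRF8-labelled library and 0.0497% (0.0487 to 0.0507) in the vector-labelled library. Without Apoe and Apob the other 8 genes held 494 counts in the IRF8-labelled library and 3204 in the vector-labelled library. Their summed level was 28.1 CPM in the IRF8-labelled library and 160.6 CPM in the vector-labelled library. So the sum was higher with Apoe and lower without it. Of the summed level per length, Apoe made up 98.96% in the IRF8-labelled library and 94.8% in the vector-labelled library. Leaving it out, Apob made up 50.7% in the IRF8-labelled library and 13.8% in the vector-labelled library, and Apoa1 35.2% in the IRF8-labelled library and 50.3% in the vector-labelled library. The share of Apoa2 was 2.04% in the IRF8-labelled library and 16.6% in the vector-labelled library, while that of Apoc1 was 11.5% in each.

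**Figure D3:**
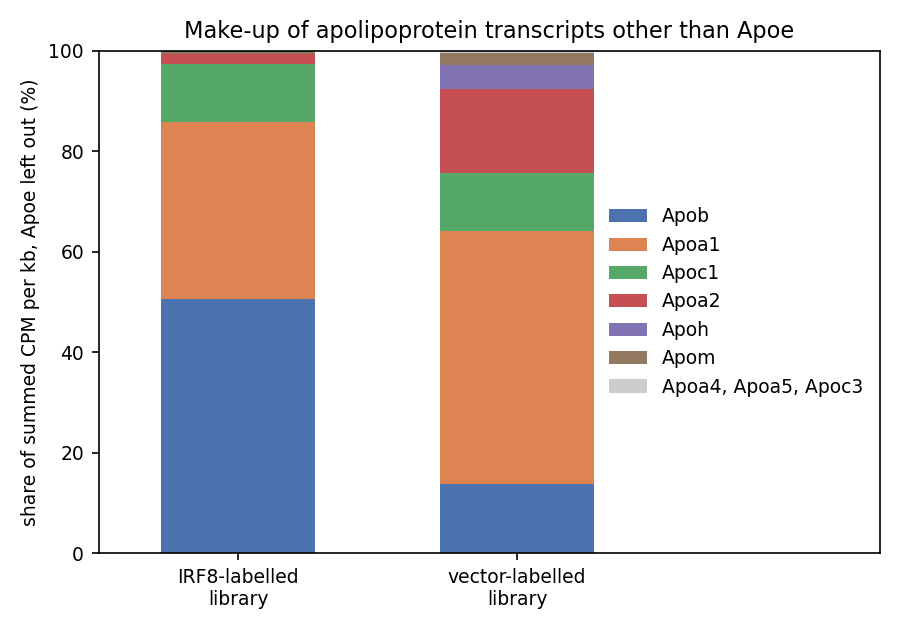
Share of the summed CPM per kb held by each apolipoprotein gene other than Apoe, in percent, in the IRF8-labelled library and in the vector-labelled one (1 library each, no error shown). Apob takes 50.7% of the IRF8-labelled bar and 13.8% of the vector-labelled bar, and Apoa2, Apoh and Apom are barely visible in the IRF8-labelled bar.

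The genes lie in clusters and beside unrelated genes, and the ratios of their measured neighbours are given here. In the deposited coordinates (mm10), 37 measured genes other than members start within 100 kb of a member. Of these 1 was at least 2-fold lower and none higher, against 2.77% lower and 2.59% higher over all measured genes. Their median log2 ratio was 0.10. On chromosome 9, where Apoa1, Apoc3, Apoa4 and Apoa5 adjoin, the nearest measured genes were Zpr1, at 0.15 (0.01 to 0.28), and Bud13, at 0.13 (-0.10 to 0.37). Around Apoa2 on chromosome 1, Tomm40l was at -0.06 (-0.31 to 0.19), Fcer1g at 0.13 (0.04 to 0.22), Pcp4l1 at 0.25 (-0.44 to 0.96) and Adamts4 at 0.52 (0.42 to 0.61). Beside Apom, Bag6 was at 0.004 (-0.07 to 0.08), Csnk2b at -0.15 (-0.26 to -0.04), D17H6S53E at 0.13 (-0.10 to 0.37) and Prrc2a at -0.08 (-0.12 to -0.04). Gpank1 was at 0.40 (0.16 to 0.64) and Aif1 at 0.21 (0.06 to 0.36). Ltb, a lymphocyte cytokine gene 62.4 kb away, was the single neighbour at least 2-fold lower (-1.12, -1.25 to -0.997). Next to Apoh, Prkca was at 0.04 (-0.12 to 0.20) and Cep112 at 0.33 (0.12 to 0.55). No measured gene starts within 100 kb of Apob.

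The cluster on chromosome 7 held genes that differed in opposite directions. Apoe and Apoc1 start 6.5 kb apart, and there were 2377 counts of Apoe for each count of Apoc1 in the IRF8-labelled library and 456.0 in the vector-labelled library. Apoc4, a minor VLDL protein 11.2 kb on the other side of Apoc1, went with Apoe: it had 1341 counts in the IRF8-labelled library and 1135 in the vector-labelled library, 1.34-fold higher (1.24 to 1.45). Apoc2, the cofactor that activates lipoprotein lipase, had 39 counts in the IRF8-labelled library and 28 in the vector-labelled library, and its interval held 0. The flanking genes Tomm40, at -0.21 (-0.32 to -0.10), and Clptm1, at -0.20 (-0.29 to -0.12), were slightly lower, while Nectin2 was at 0.19 (0.09 to 0.29) and Bcam at 0.45 (0.40 to 0.50).

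**Figure D4:**
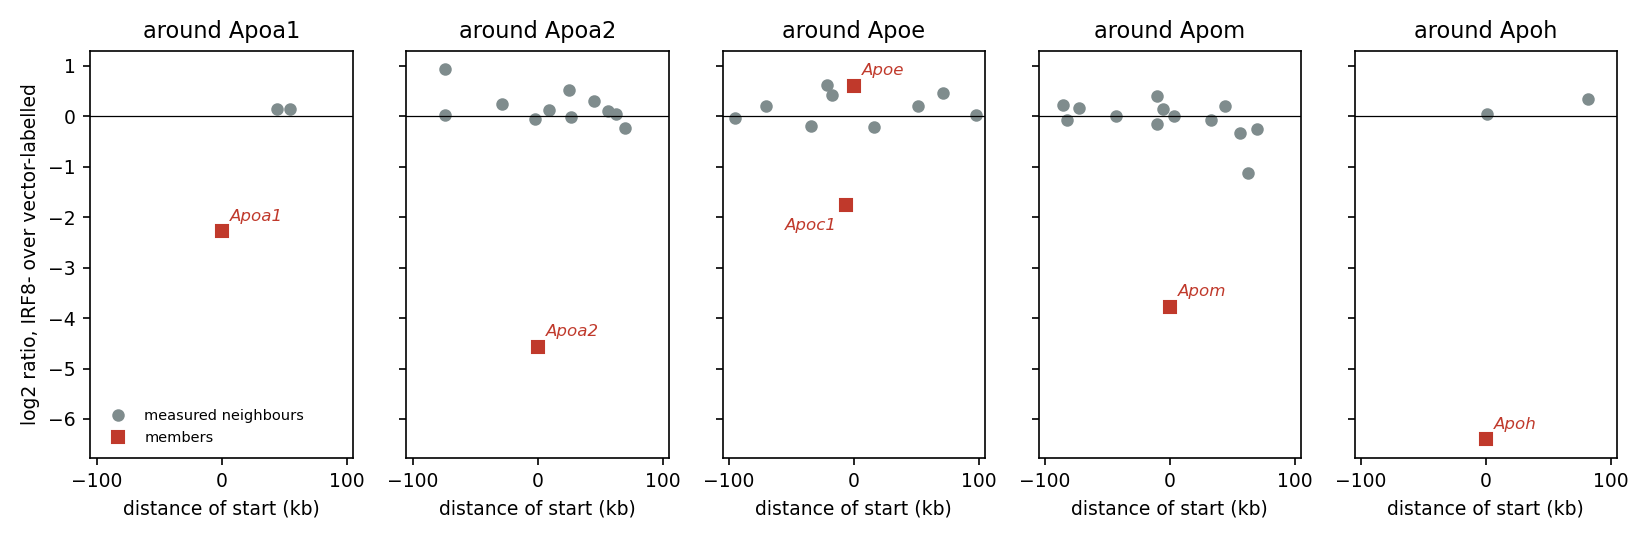
Log2 ratio, IRF8-labelled over vector-labelled, of measured genes against the distance of their start from that of Apoa1, Apoa2, Apoe, Apom and Apoh (kb, deposited coordinates); red squares are members and grey points other genes. Apoa1, Apoa2, Apoc1, Apom and Apoh lie well below neighbours that sit near 0, with 1 neighbour of Apom (Ltb, -1.12) past 2-fold.

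The sequences upstream of 3 strongly lower genes (Apoa1, Apoa2 and Apoh) and of the 2 abundant genes that were not lower (Apob and Apoe) are shown to set these groups side by side. They come from RefSeq (GRCm38.p6), run 5′ to 3′ towards the start, and are cut where an annotated exon begins. Capitals mark matches, on either strand, to any of 4 motifs: CAAAGTCC (an Hnf4a core), AGGTCA (the hexamer of nuclear receptors), TATAAA and CCAAT.
Apoa1 promoter (chr9:46228380-46228579, plus strand): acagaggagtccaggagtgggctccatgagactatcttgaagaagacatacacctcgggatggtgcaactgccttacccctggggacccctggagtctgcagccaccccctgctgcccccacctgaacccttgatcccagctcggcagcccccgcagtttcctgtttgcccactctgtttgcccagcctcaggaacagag
Apoa2 promoter (chr1:171224804-171225053, plus strand): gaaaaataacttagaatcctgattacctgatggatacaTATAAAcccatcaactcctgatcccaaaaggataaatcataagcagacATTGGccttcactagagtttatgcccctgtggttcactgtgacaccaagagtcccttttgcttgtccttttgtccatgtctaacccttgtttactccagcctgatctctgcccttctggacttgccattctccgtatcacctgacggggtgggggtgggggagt
Apoh promoter (chr11:108395047-108395292, plus strand): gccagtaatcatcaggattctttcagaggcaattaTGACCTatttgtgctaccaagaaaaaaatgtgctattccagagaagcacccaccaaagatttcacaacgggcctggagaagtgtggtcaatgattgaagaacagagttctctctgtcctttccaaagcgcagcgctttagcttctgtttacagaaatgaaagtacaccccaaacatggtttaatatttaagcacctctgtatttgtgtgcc
Apob promoter (chr12:7977427-7977647, plus strand): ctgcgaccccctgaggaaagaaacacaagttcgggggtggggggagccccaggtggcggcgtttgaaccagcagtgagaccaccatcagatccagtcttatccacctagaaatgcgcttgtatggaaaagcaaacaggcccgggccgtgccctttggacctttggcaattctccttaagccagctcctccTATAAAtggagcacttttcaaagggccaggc
Apoe promoter (chr7:19699189-19699438, minus strand): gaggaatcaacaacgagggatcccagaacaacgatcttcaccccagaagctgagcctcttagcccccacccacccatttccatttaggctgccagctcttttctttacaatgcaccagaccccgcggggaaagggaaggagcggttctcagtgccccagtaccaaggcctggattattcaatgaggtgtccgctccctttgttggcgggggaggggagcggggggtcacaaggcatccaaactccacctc
Among the genes printed, the RefSeq start lies inside the deposited gene for Apoh (51943 bases), Apoa1 (50 bases) and Apob (29 bases). The last printed base of Apob is therefore 30 bases before its RefSeq start, and that of Apoa1 51 bases before. Of the 10 members 8 had a RefSeq entry, and their 250 bases upstream were searched, as were those of all 32851 entries. TATAAA was in Apoa2, Apoa5 and Apob (12.4% of all entries hold it), at 212, 56 and 60 bases before the RefSeq start. AGGTCA was in Apoh (14.0% of entries) and CCAAT in Apoa2 (33.8%). CAAAGTCC (1.2% of entries) was in none of the 8 windows. Annotated exons cover 250 of 250 bases of the Apoa4 window and 249 of that of Apom, so these are not upstream sequence. A match, or none, says only whether these letters are in this window.

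Other apolipoprotein genes were mixed as well. Of 14, 9 were measured, with 3 at least 2-fold lower and none higher, against 2.77% lower and 2.59% higher over all measured genes. Their median log2 ratio was -0.16. The median was -0.58 over the 12 with any count when Saa4 and Apol8, at 0 in the IRF8-labelled library, were set at 3 counts. Apof, a minor liver protein of LDL and HDL, had 9 counts in the IRF8-labelled library and 178 in the vector-labelled library, 17.4-fold lower (8.97 to 38.7). Apol6, known as an intracellular protein in human cells, had 278 counts in the IRF8-labelled library and 1580 in the vector-labelled library, 5.00-fold lower (4.40 to 5.70). Saa3, an inducible serum amyloid A, had 17 counts in the IRF8-labelled library and 74 in the vector-labelled library, 3.83-fold lower (2.24 to 6.93). Saa4 had 0 counts in the IRF8-labelled library and 22 in the vector-labelled library. It was 6.45-fold lower when set against 3 counts, with an interval beginning at 4.82-fold. Apof and Saa3 were measured through the vector-labelled library alone, and Saa4 was under the filter. Clu, the apolipoprotein J gene made by many cell types, was near level at -0.15 (-0.20 to -0.11). Apod, a lipocalin of many tissues, was at -0.80 (-1.10 to -0.52). Apol9a was at 0.12 (-0.04 to 0.29) and Apol9b at -0.16 (-0.39 to 0.06); they are close copies, so their split of reads is uncertain. Apon had 4 counts in the IRF8-labelled library and 8 in the vector-labelled library, Apol8 had 0 in the IRF8-labelled library and 5 in the vector-labelled library, and the intervals of both held 0. Saa1 and Saa2 had no counts in either library.

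The next list holds the machinery that loads lipid onto Apob. Of 14 measured assembly genes 3 were at least 2-fold lower, against 2.77% of all measured genes, and none was higher (median -0.14). Mttp, which transfers triglyceride to the growing particle, had 302 counts in the IRF8-labelled library and 1070 in the vector-labelled library, 3.12-fold lower (2.74 to 3.56). Dgat2, which makes that triglyceride, had 90 counts in the IRF8-labelled library and 233 in the vector-labelled library, 2.28-fold lower (1.78 to 2.94). A1cf, the cofactor of Apob mRNA editing, had 19 counts in the IRF8-labelled library and 49 in the vector-labelled library, 2.27-fold lower (1.31 to 4.08). P4hb, the abundant partner subunit of Mttp in its complex, was at -0.06 (-0.08 to -0.03), and Vmp1, needed for lipoprotein release, was at 0.60 (0.55 to 0.66).

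Other genes act on particles after secretion. In each of the HDL, lipolysis and receptor lists 1 measured gene was at least 2-fold lower, against 2.77% of all measured genes. Of 11 measured HDL genes 1 was at least 2-fold lower and none higher (median 0.01): Soat2, the cholesterol esterifying enzyme of hepatocytes and intestine, with 61 counts in the IRF8-labelled library and 267 in the vector-labelled library, 3.85-fold lower (2.91 to 5.18). Lcat, the plasma enzyme that Apoa1 activates, was at -0.86 (-1.50 to -0.31) and the HDL receptor gene Scarb1 at -0.39 (-0.50 to -0.28). Abca1, which loads cholesterol onto Apoa1, was level at 0.03 (-0.04 to 0.11), and Bmp1, which matures Apoa1, was at 0.32 (0.24 to 0.40). Under the filter, Lipg, an endothelial lipase of HDL named after its values were seen, had 3 counts in the IRF8-labelled library and 17 in the vector-labelled library (-1.79, -4.73 to -0.53).

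Of 8 measured lipolysis genes 1 was at least 2-fold lower and none higher (median -0.19). Angptl8, an inhibitor of lipoprotein lipase, had 22 counts in the IRF8-labelled library and 131 in the vector-labelled library, 5.24-fold lower (3.32 to 8.65). Lpl, the lipase itself, lay at the limit with a log2 ratio of -0.997 (-1.06 to -0.93), the lysosomal lipase gene Lipa was at -0.37 (-0.47 to -0.26) and Cd36 at -0.33 (-0.50 to -0.15). Of 14 measured receptor genes 1 was at least 2-fold lower and none higher (median -0.25). This was Olr1, a receptor for oxidised LDL, at -1.36 (-2.34 to -0.65), measured through the vector-labelled library alone. Lrp1, a receptor for Apoe, was at -0.65 (-0.70 to -0.60), and Mylip, an E3 ligase of the LDL receptor, at 0.48 (0.26 to 0.71).

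Regulators of apolipoprotein genes lay on both sides of 0. Of 23 measured 1 was at least 2-fold lower, against 2.77% of all measured genes, and none was higher, with a median log2 ratio of -0.01. Hnf4a had 2706 counts in the IRF8-labelled library and 2957 in the vector-labelled library, a ratio of 0.06 (-0.02 to 0.13). The hepatocyte nuclear receptor gene Nr5a2 was the one past the limit, with 257 counts in the IRF8-labelled library and 615 in the vector-labelled library, 2.11-fold lower (1.82 to 2.45). Nr1h3, the sterol receptor LXR alpha, which is known to induce Apoe in macrophages, was at -0.68 (-0.91 to -0.46). Ppara was at -0.60 (-1.25 to -0.03) and Nr2f1 at 0.73 (0.07 to 1.49), while the sterol regulators Srebf2 and Srebf1 were at -0.36 (-0.42 to -0.30) and -0.03 (-0.10 to 0.04). Both regulators under the filter were lower, and they are named after their values were seen. Creb3l3, a liver factor that induces Apoa4 and Apoc2 among others, had 4 counts in the IRF8-labelled library and 34 in the vector-labelled library, 7.48-fold lower (2.67 to 29.0). Nr0b2, a nuclear receptor without a DNA-binding domain, had 4 counts in the IRF8-labelled library and 29 in the vector-labelled library, 6.38-fold lower (2.24 to 25.0).

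**Figure D5:**
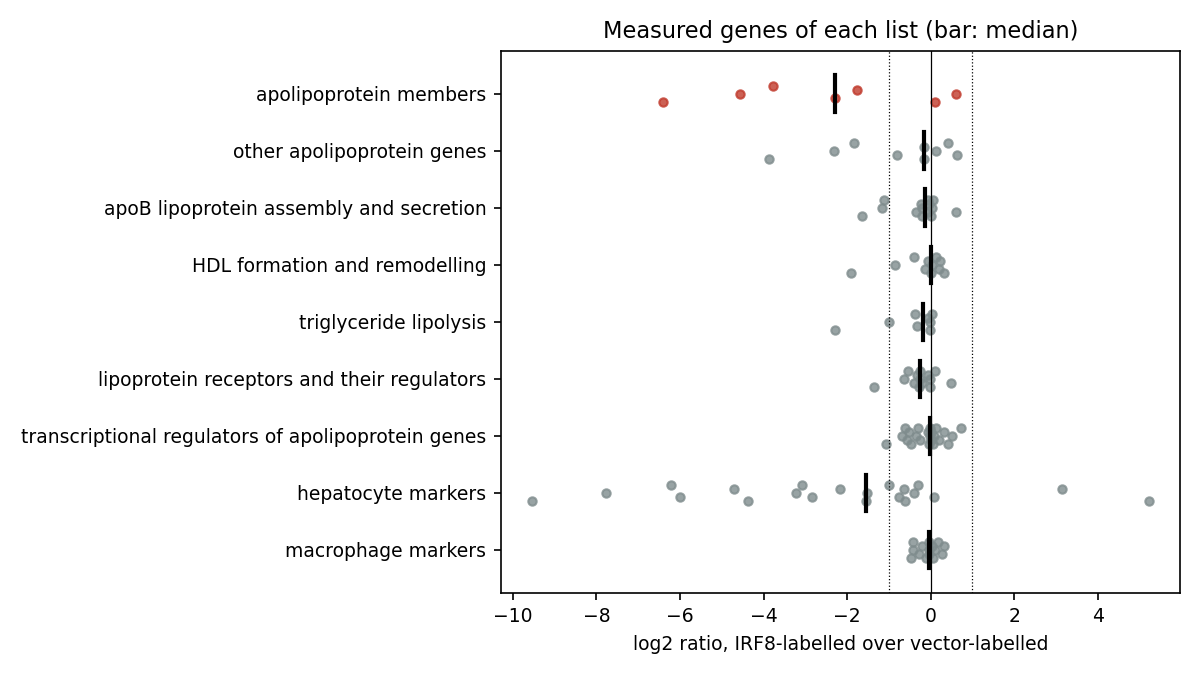
Log2 ratio, IRF8-labelled over vector-labelled, of every measured gene of 9 lists (1 point per gene; black bar, median of the list; dotted lines, 2-fold). The medians of the members (-2.28) and of hepatocyte markers (-1.55) lie left of the 2-fold line, while those of the 7 remaining lists lie between -0.25 and 0.01.

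Many other liver genes were lower as well. Of 21 measured hepatocyte markers 12 were at least 2-fold lower and 2 higher, against 2.77% lower and 2.59% higher over all measured genes, with a median log2 ratio of -1.55, also with Serpina1d and Cps1 (both at 0 in the IRF8-labelled library) at the level of 3 counts. Their summed level was 2944.6 CPM in the IRF8-labelled library and 6535.4 CPM in the vector-labelled library. Of the 12, Ahsg, Fga, Serpina1d, Tat and Cps1 reached 1 CPM in the vector-labelled library alone and so could only be lower, and both higher markers reached it in the IRF8-labelled library alone. Log2 ratios in the list ran between -9.55 and 5.22. Alb lay at the limit at -1.0 (-1.02 to -0.98), 1.9995-fold lower, and so was not counted among the 12. The retinol carrier gene Rbp4 was at -0.31 (-0.35 to -0.28), nearer to Apob. Fga, the fibrinogen alpha chain, was at -9.55 (-11.98 to -8.74), Ahsg at -7.76 (-9.42 to -7.06) and Fgg at -6.00 (-6.84 to -5.49), near or beyond Apoh. Serpina1d had 0 counts in the IRF8-labelled library and 157 in the vector-labelled library, and Cps1 had 0 in the IRF8-labelled library and 53 in the vector-labelled library. Hpd had 0 counts in the IRF8-labelled library and 2 in the vector-labelled library, both under the limit of 3 counts. No marker of the list was at 0 in the vector-labelled library. Of the 4 markers under the filter Asgr1 was lower, with 3 counts in the IRF8-labelled library and 19 in the vector-labelled library (-1.93, -4.88 to -0.72). The 2 higher markers, named after their values were seen, were Pck1, a gluconeogenic enzyme also known from fat, at 5.22 (4.33 to 12.2) and Cyp2e1 at 3.14 (2.33 to 5.03). The part of these liver genes in the apolipoprotein levels was not tested.

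Most measured markers of skeletal muscle and of adipocytes were at least 2-fold higher. Of 14 measured skeletal muscle markers 13 were, against 2.59% of all measured genes, but 9 of the 13 reached 1 CPM in the IRF8-labelled library alone and so could only be higher. The list had a summed level of 404.2 CPM in the IRF8-labelled library and 27.4 CPM in the vector-labelled library. Myh4 was at 6.90 (6.23 to 8.60), Pvalb at 6.41 (5.62 to 9.46), Myl1 at 5.92 (5.31 to 7.26), Ckm at 5.36 (4.68 to 7.07) and Acta1 at 4.75 (4.41 to 5.22). Among adipocyte markers Car3 was at 4.33 (3.91 to 4.97), Cfd at 3.85 (3.39 to 4.56), Plin1 at 3.46 (2.48 to 7.53), Adipoq at 3.18 (2.23 to 6.22) and Fabp4 at 1.05 (0.91 to 1.20), while Pnpla2 was at -0.08 (-0.19 to 0.03). Under the filter Cidea was higher, with 5 counts in the IRF8-labelled library and 0 in the vector-labelled library. The muscle list held 7097 counts in the IRF8-labelled library and 546 in the vector-labelled library, and the part of these tissues in the lower apolipoprotein levels was not tested. Intestine is the other main source of Apoa1, Apoa4 and Apob. The intestinal factor genes Cdx1 and Cdx2 had 0 counts each in the IRF8-labelled library and 0 and 1 in the vector-labelled library. None of 5 measured enterocyte markers was 2-fold different, against 2.77% lower and 2.59% higher over all measured genes, so this count says little. Under the filter, Fabp2, the intestinal fatty acid binding protein gene, was lower, with 7 counts in the IRF8-labelled library and 20 in the vector-labelled library (-1.13, -2.82 to -0.03). Of the measured markers, Epcam was at 0.69 (0.54 to 0.85), Anpep at -0.57 (-0.70 to -0.44) and Vil1 at -0.29 (-0.36 to -0.22), and other epithelia also express these. Sis had 60 counts in the IRF8-labelled library and 52 in the vector-labelled library, at 0.38 (-0.17 to 0.96).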

How the data were processed

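RNA was sequenced from 2 tumours, 1 library per group, prepared with NEBNext Ultra chemistry, per the labels. The authors deposited raw counts per gene for both libraries; alignment with HISAT2 2.0.5 to mm10 and counting with featureCounts 1.5.0-p3 are recorded in the submitters' processing notes. The sources used here do not say how multi-mapped reads and strand were handled. Totals were 17316607 (IRF8) and 20223649 (vector) counts. The gene length column, deposited by the authors in bases, served only for levels per kb.

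Scaling used TMM in edgeR 4.0.16 (R 4.3.3). Log2 ratios, IRF8 over vector, used a prior count of 2; folds of named genes used scaled counts without it. Intervals are 95% Clopper-Pearson intervals of the split of a gene's counts. A gene at 0 in one library was set against 3 counts in that library. No test was possible with 1 library per group, and the ratio step was tested on simulated data. Antisense overlap came from GENCODE M21. The members and gene lists were chosen with earlier results of these data known. Named were all members, other apolipoprotein genes with a count, the 4 largest ratios and 2 most abundant measured genes of each list, Irf8, Hnf4a, Nr1h3, Adgre1 and Alb, and up to 3 measured neighbours on each side of a member; Ltb, Clec4f, Cdx1, Cdx2, Cps1, Hpd, Pck1, Cyp2e1, Tat, Cidec, Creb3l3, Nr0b2, Lipg, Marco, Cd163, Asgr1, Cidea and Fabp2 were added after their values were seen. A few genes that this rule names, and 1 searched motif, are not reported here. Alternatives changed the scaling, prior count, filter, depth, gene set and fold limit.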

Additional observations from a re-analysis of the deposited data

How the results depend on the processing

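No paired analysis was possible because there is 1 library per group, and no replicate could be left out. With scaling by total counts, relative log expression or upper quartile, a prior count of 0.5, the vector library thinned to the depth of the IRF8 library, or protein-coding genes only, 5 measured members stayed at least 2-fold lower and 0 higher. At 1.5-fold, 5 were lower and 1 (Apoe) higher. With no filter on low counts 6 were lower and the median of the 10 was -2.02; with Apoc3 set at 3 counts and Apoa4 left out it was -1.75. At a mean of at least 5 CPM Apom also fell under the filter, 4 members were lower and the median was again -2.02. Over all genes, 719 were lower and 814 higher with no filter, 179 and 119 at 5 CPM, and 822 and 1025 at 1.5-fold, against 410 and 383. These are numbers of genes, and no share was computed at 5 CPM. Of 76 alternative member ratios 74 lay within the counting interval of the value given, and none changed sign past 2-fold. Both exceptions were Apoe, at 0.64 with total counts and 0.58 with relative log expression. Part of this count was fixed in advance. A change of filter cannot alter the ratio of a gene, and the intervals of Apoa4 and Apoc3 have no lower end. The fitted ratio of Apoh ran from -7.36 to -6.34 and that of Apoc3 from -4.44 to -2.61, since single counts leave the size open to the prior count. Of 88 alternative medians of the other lists, 86 lay between the median lower end and the median upper end of the genes' counting intervals. This range is not a confidence interval of the median. The exceptions were other apolipoprotein genes, at -0.70 with no filter, and adipocyte markers, at 1.05 with a mean of at least 5 CPM. Depth limits Apoa4 and Apoa5, for which a difference was not detectable.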
